A study of Homo sapiens with 12 samples.

Results

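The nuclear genes named for NADH:ubiquinone oxidoreductase, complex I of the mitochondrial respiratory chain, were followed in cells that received 1 of 4 versions of the transcription factor MSX1. Members were the rows of the deposited expression table whose gene name is NDUFA, NDUFB, NDUFC, NDUFS, NDUFV, NDUFAB or NDUFAF with a number. This gave 46 genes of 63241 in the table, without pseudogenes, antisense transcripts or read-through genes. By textbook assignment 37 of them encode subunits of complex I, of which 7 are core subunits and 30 accessory subunits. Of the others, NDUFA4 encodes a subunit that is now assigned to complex IV, and 8 encode assembly factors of the NDUFAF series.

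The cells were HEPM, an established human line of embryonic palatal mesenchyme, and RNA was taken 6 h after transfection. Each group received an expression plasmid for MSX1, with the protein either wild type (WT) or with 1 arginine replaced by serine (R157S), lysine (R157K) or phenylalanine (R157F), named by the position of the change. There were 3 libraries per plasmid and 12 in all. All 4 groups therefore share MSX1 overexpression, the reference is WT MSX1 and not untransfected cells, and no group lacking the plasmid was analysed here. Expression was measured by sequencing of poly(A)-selected RNA and is given as TPM, a measure of transcript abundance that corrects for transcript length and is a share of the library total.

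Complex I takes electrons from NADH, passes them along iron-sulfur clusters to ubiquinone and pumps protons across the inner mitochondrial membrane. Its peripheral arm is made of the N module, which oxidises NADH, and the Q module, which reduces ubiquinone, while the membrane arm pumps protons and has a proximal and a distal part. The core subunits of the membrane arm are encoded in mitochondrial DNA, so the enzyme needs transcripts from 2 genomes, and assembly factors join the modules without staying in the finished enzyme.

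In each of the 12 libraries, the defining markers of mesenchyme and fibroblasts that had been listed (among them VIM, COL1A1 and PRRX1) summed to between 11300 and 16400 TPM. Most of that sum was VIM, and it hides opposite changes with R157K. PRRX1 and PDGFRA fell by 1.41 and 0.87 on the log2 scale. COL1A1, COL1A2, COL3A1 and TWIST1 rose by 1.29, 0.30, 0.82 and 1.56 (limma, adjusted p under 0.05 for all 6). VIM, PDGFRB and THY1 did not pass. Their part in the members' changes was not tested. The other marker lists were low: at most 0.62 TPM for 4 blood genes (CD3E at 0 in every library), 1.27 TPM for 3 of glia, 5.86 TPM for 3 of skeletal muscle (MYOD1 and MYOG at 0, DES at 2.44 to 5.86) and 8.34 TPM for 5 of epithelium, mostly KRT8. The 4 endothelial genes summed to 8.5 to 8.8 TPM with WT, 5.72 to 7.46 with R157S, 1.79 to 2.63 with R157K and 2.3 to 3.93 with R157F, most of it PECAM1, while CDH5 did not exceed 0.09 TPM. PECAM1 fell by 1.70 with R157K (adjusted p = 5.03e-06), and its part in the members' changes was not tested. MSX1 itself, which does not separate plasmid from endogenous transcripts here, lay between 224 and 446 TPM with WT, 326 and 642 with R157S, 333 and 604 with R157K, and 627 and 1010 with R157F. The median log2 change of all 14718 genes tested was -0.34 for R157K against WT, -0.08 for R157F and -0.01 for R157S, so falls of members with R157K are also given relative to that median, and relative to it each rise is larger by the size of that shift. WT replicate 2 stood apart from the other WT libraries: 28 of the 46 members had their lowest WT value there and 11 their highest. In bulk RNA of this kind, fewer cells of a type and less RNA per cell cannot be told apart.

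All 46 members were expressed, with at least 1 TPM in each library and values from 5.96 TPM (NDUFAF4 in an R157K library) to 748 TPM (NDUFB1 in another). On the length-corrected TPM scale, the 46 genes had a median level of 66.6 TPM in the WT group, 71.6 for R157S, 92.3 for R157K and 78.9 for R157F. NDUFB1, a small subunit of the distal membrane arm, had the highest mean over the 12 libraries (360 TPM), followed by NDUFS5 of the proximal arm (309 TPM) and NDUFA1 (260 TPM). The lowest mean belonged to the assembly factor NDUFAF7 (9.95 TPM), and NDUFAF4, NDUFAF6, NDUFV3 and NDUFAF5 were the next lowest.

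The complex I subunits are built into the enzyme in equal numbers apart from the acyl carrier protein, yet their transcripts were not at equal levels. Among the 37 subunit genes the highest mean level was 20.9 times the lowest with WT (NDUFV2 over NDUFA3) and 11.2 times with R157S (NDUFS5 over NDUFV3). With R157K it was 72.5 times (NDUFB1 over NDUFV3) and with R157F 24.5 times (the same pair). The order of the 37 levels with WT was related to that with R157S by a Spearman rho of 0.86, with R157K by 0.54 and with R157F by 0.65. These coefficients run across genes of the same libraries and are a description only.

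**Figure D1:**
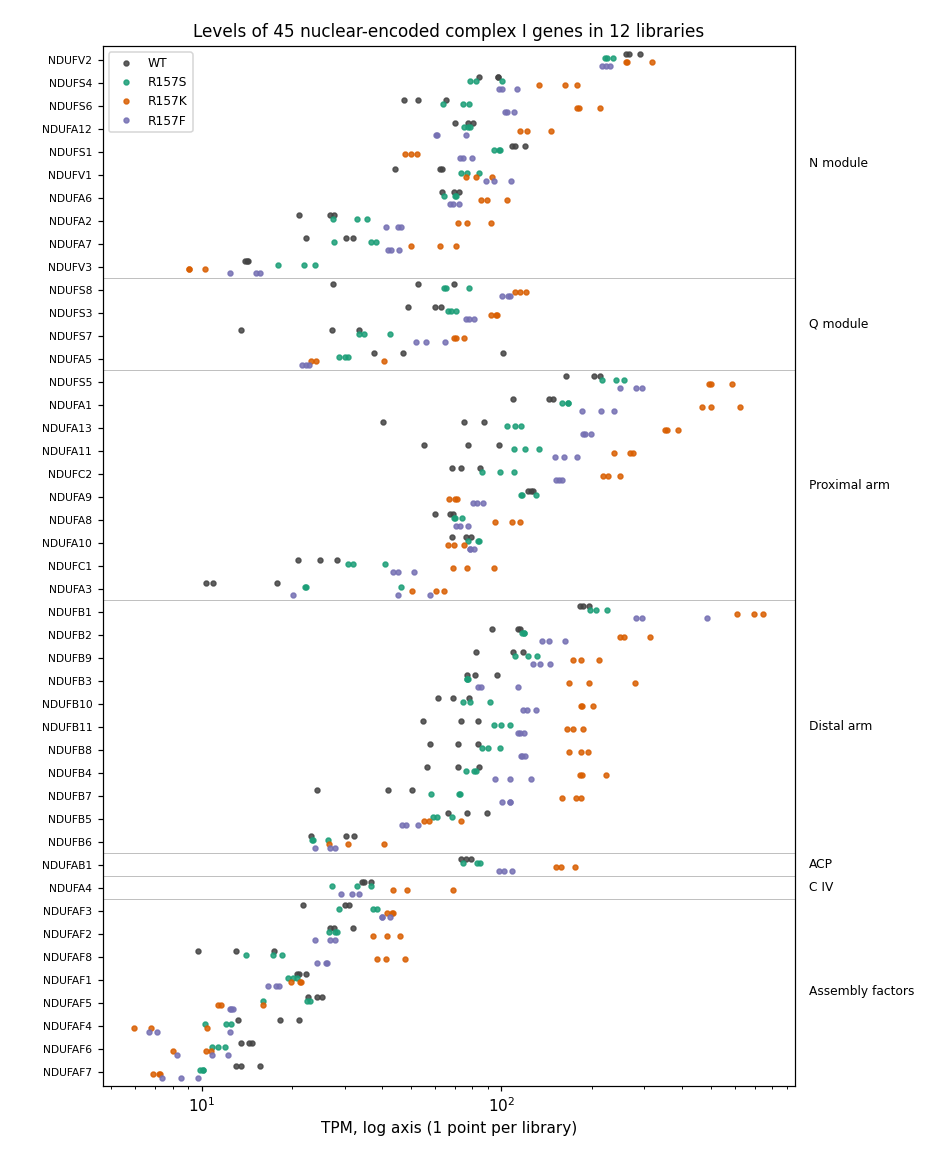
Level of 45 of the 46 genes in each of the 12 libraries, in TPM on a log axis, with genes grouped by the part of complex I they belong to and ordered by mean level. The R157K points lie to the right of the others for most membrane arm genes, for example NDUFA13 at 351 to 388 TPM. They lie to the left of all other groups for NDUFS1, NDUFA9, NDUFV3 and the assembly factor NDUFAF7. For NDUFAF4, NDUFAF5 and NDUFAF6 they overlap those of R157F.

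A share of the members moved together, so the DNA before their start sites was read from RefSeq (GRCh38.p14) for the members with the most positive and most negative changes with R157K and for those changed with R157K that hold a motif of NRF1, ETS factors or YY1, regulators known to act on respiratory genes. Printed is the longest run, within 200 bases before the RefSeq start, that lies outside every exon of the basic set of GENCODE 29. Exons found only in the full set were not masked. The NDUFA3 run extends past the start of that gene in the full set, at 54102728. Runs under 100 bases were not printed. Each sequence reads 5′ to 3′ on the strand of its gene, and capitals mark the ETS motif CCGGAAG or the NRF1 motif on either strand.
NDUFB7, chr19:14572067-14572266, minus strand: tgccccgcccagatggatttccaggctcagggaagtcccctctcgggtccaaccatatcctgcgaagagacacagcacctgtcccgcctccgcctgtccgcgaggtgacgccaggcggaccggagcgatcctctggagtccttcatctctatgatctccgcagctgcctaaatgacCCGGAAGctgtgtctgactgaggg
NDUFA3, chr19:54102693-54102836, plus strand: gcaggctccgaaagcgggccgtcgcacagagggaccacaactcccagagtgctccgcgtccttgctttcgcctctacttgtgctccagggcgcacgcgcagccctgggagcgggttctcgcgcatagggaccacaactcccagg
NDUFB4, chr3:120596136-120596308, plus strand: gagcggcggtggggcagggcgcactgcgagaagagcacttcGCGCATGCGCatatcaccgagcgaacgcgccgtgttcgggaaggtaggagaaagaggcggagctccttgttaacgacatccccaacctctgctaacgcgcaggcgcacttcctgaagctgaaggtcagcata
NDUFAF4, chr6:96897892-96898091, minus strand: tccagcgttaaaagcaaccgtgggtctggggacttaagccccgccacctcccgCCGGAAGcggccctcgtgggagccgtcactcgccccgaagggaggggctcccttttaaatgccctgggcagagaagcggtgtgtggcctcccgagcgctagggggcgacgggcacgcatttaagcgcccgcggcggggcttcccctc
NDUFB7, NDUFA3 and NDUFB4 were higher with R157K and NDUFAF4 was lower, and an ETS motif lies 24 bases before the start of NDUFB7 and 147 bases before that of NDUFAF4. What part the motif had in either change was not tested. With the trends of GC content and transcript length removed, the change of NDUFAF4 with R157K was 0.00.

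RefSeq windows of 250 bases before to 50 after the start were matched by symbol for 39 of the 46 members, and 35 of these windows start within 1000 bases of the GENCODE start. Those of NDUFB2, NDUFS3, NDUFV1 and NDUFV3 do not, and of these NDUFS3 holds an ETS and NDUFV3 a CCAAT match. Each member counts with 1 window, the nearest to its GENCODE start out of 51 member windows. The windows set beside them can hold several of 1 gene and were not limited to the genes tested. Median GC content was 61.3% in the member windows and 58.7% in all. The YY1 motif AAGATGGCG was found in 15.4% of the 39 member windows, against 1.75% of all 35116 windows in the table. The NRF1 motif, whose letters are the capitals in NDUFB4, was found in 7.69% against 1.24%, and the ETS motif CCGGAAG in 17.9% against 10.3%. The E-box CACGTG was found in 10.3% against 7.26%, CCAAT in 30.8% against 34.6% and TATAAA in 7.69% against 11.5%, all read on both strands, where the E-box and NRF1 motifs read the same on both. Among the 28 members with a window that were higher with R157K, 5 held the YY1 motif, 5 the ETS motif and 2 the NRF1 motif, and among the 7 that were lower the numbers were 1, 2 and 1. The shares describe letters only, and 24 of the 39 windows held none of these 3 motifs.

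With lysine in place of the arginine, most subunit genes rose against WT while 1 core subunit, a few accessory subunits and 4 assembly factors fell. Of the 46 members, 32 were higher and 8 lower at an adjusted p under 0.05 (limma, Benjamini-Hochberg over all genes tested), where 17.3% of all genes tested were higher and 46.2% lower, or 63.6% in either direction. The median log2 change of the members was 0.82, against -0.34 for all genes. Under scaling of each library by its median ratio to the others, 37 members were higher and 5 lower, and of all genes 30.9% were higher and 30.4% lower. In 32 members all 3 R157K libraries lay above all 3 WT libraries and in 7 below, where this held for 15.9% and 47.6% of all genes. Nothing in the labels ties the libraries of a group to independent cultures, and the p-values then reflect spread among these libraries that may be technical. Adjusted p-values of genes below come from the same limma model, and fold changes are on the log2(TPM + 1) scale.

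In the N module, 7 of 10 genes rose with R157K and 2 fell. NDUFS6, an accessory subunit that joins late in assembly, stood at 52.7, 47.2 and 65.4 TPM in the WT libraries, 77.9, 74.7 and 64.1 with R157S, 182, 213 and 179 with R157K and 104, 103 and 110 with R157F. The R157K values were the highest and did not overlap any other group, while R157S overlapped WT. The log2 change with R157K was 1.78 ± 0.13 (SE, adjusted p = 8.48e-07). NDUFA2 rose by 1.64, NDUFA7 by 1.09 and NDUFS4, whose loss causes Leigh syndrome, by 0.75.

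NDUFV1, the core subunit that binds FMN and takes up NADH, rose by 0.58 ± 0.14 (adjusted p = 0.00325). Its partner NDUFV2 was at 261, 291 and 267 TPM with WT and 262, 319 and 261 with R157K, with overlapping groups and a log2 change of 0.03 that was not called. Under median-ratio scaling the change of NDUFV2 was 0.45 and was called.

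NDUFS1, the largest core subunit and holder of several iron-sulfur clusters, moved the other way. It stood at 111, 120 and 108 TPM with WT, 99.3, 98.5 and 94.4 with R157S, 49.9, 52.1 and 47.5 with R157K and 79.97, 74.2 and 72.6 with R157F. The 4 groups did not overlap, with WT highest and R157K lowest. NDUFS1 fell by 1.17 on the log2 scale with R157K (SE 0.08, adjusted p = 9e-07), or by 0.83 relative to the median of all genes. It lies at chr2:206114817-206159603 on the minus strand in GENCODE 29 (GRCh38) and its transcript of 11819 bases was the longest among the members. With the trends of GC content and length removed, its change was -0.17 and was not called (adjusted p = 0.0805). NDUFV3, the other N module gene to fall, had values of 14.3, 14.2 and 13.9 TPM with WT and 9.10, 10.2 and 9.07 with R157K, and R157S lay above both groups at 17.9, 21.9 and 23.9 TPM. NDUFV3 fell by 0.53 with R157K (adjusted p = 0.00265), or by 0.19 relative to all genes, a call that was lost under median-ratio scaling (adjusted p = 0.348).

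In the Q module, 3 of 5 genes rose with R157K and 1 fell. NDUFS7, the core subunit that carries the last cluster before ubiquinone, stood at 27.3, 13.5 and 33.5 TPM with WT, 33.6, 34.9 and 42.6 with R157S, 70.5, 69.6 and 75.2 with R157K and 55.9, 64.7 and 52.0 with R157F. Each variant group lay above the WT group, whose replicate 2 was the lowest library. NDUFS7 rose by 1.59 ± 0.24 with R157K (adjusted p = 0.000108). With the GC and length trends removed its change was 0.32 (adjusted p = 0.0884). The core subunits NDUFS8 and NDUFS3 rose by 1.29 and 0.73.

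NDUFA5, an accessory subunit of the Q module, stood at 47.1, 101 and 37.6 TPM with WT, 30.8, 28.6 and 30.0 with R157S, 23.2, 40.6 and 24.2 with R157K and 22.8, 21.6 and 22.3 with R157F. WT replicate 2 was above all other libraries, and replicate 2 was also the highest R157K library, which overlapped WT. NDUFA5 fell by 0.97 with R157K (SE 0.29, adjusted p = 0.0116), or by 0.63 relative to all genes. The call was lost under median-ratio scaling (adjusted p = 0.128), and the sign turned with the GC and length trends removed (0.04, adjusted p = 0.875).

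In the proximal membrane arm, 8 of 10 genes rose with R157K and 1 fell, and it held the most positive change among the members. NDUFA13, also known as GRIM-19, stood at 75.3, 40.3 and 87.6 TPM with WT, 117, 111 and 105 with R157S, 351, 388 and 356 with R157K and 191, 187 and 199 with R157F. The groups did not overlap and their order was WT, R157S, R157F and R157K. The log2 change with R157K was 2.48 ± 0.21 (adjusted p = 1.85e-06), from a mean of 67.8 ± 24.5 TPM to 365 ± 20.4 TPM (SD, n = 3). NDUFA13 lies at chr19:19515736-19529054 on the plus strand and overlaps YJEFN3 on that strand, and the authors' handling of such overlaps is not given in the sources used here.

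NDUFA3, a small single-span subunit, stood at 10.9, 10.4 and 17.8 TPM with WT, 46.3, 22.3 and 22.1 with R157S, 64.6, 60.4 and 50.2 with R157K and 57.8, 45.3 and 20.2 with R157F. All variant libraries lay above WT, with wide spread in R157S and R157F, and the change with R157K was 2.11 ± 0.36 (adjusted p = 0.000249). NDUFA1, a small subunit needed for assembly of the complex, was at 149, 109 and 144 TPM with WT, 167, 167 and 159 with R157S, 467, 624 and 502 with R157K and 214, 185 and 237 with R157F. R157K was well above the other groups, and NDUFA1 rose by 1.98 ± 0.14 (adjusted p = 8.86e-07). NDUFC2 stood at 68.6, 73.5 and 85.02 TPM with WT, 110, 98.7 and 86.5 with R157S, 218, 248 and 227 with R157K and 152, 155 and 159 with R157F. The 4 groups did not overlap, and NDUFC2 had the lowest p among the members both for R157K (log2 change 1.60 ± 0.11, adjusted p = 8.22e-07) and in the F test over the 4 plasmids (adjusted p = 3.98e-06). Its read-through partner NDUFC2-KCTD14, listed separately, did not exceed 7.33 TPM.

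NDUFS5, a subunit on the intermembrane space side, was at 204, 164 and 213 TPM with WT, 257, 216 and 242 with R157S, 492, 589 and 500.4 with R157K and 250, 281 and 294 with R157F. It rose by 1.45 ± 0.12 with R157K (adjusted p = 1.8e-06), with R157K above every other library. NDUFA11 and NDUFC1 rose by 1.78 and 1.66. NDUFA9, which sits at the joint of the 2 arms, was the member of the proximal arm that fell, at 125, 127 and 122 TPM with WT, 117, 116 and 131 with R157S, 69.9, 71.1 and 66.8 with R157K and 86.8, 83.0 and 80.4 with R157F. WT and R157S overlapped and R157K was lowest, with a change of -0.84 ± 0.08 (adjusted p = 3.9e-06), or -0.50 relative to all genes. With the trends removed it was 0.07 (adjusted p = 0.479).

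In the distal membrane arm, 9 of 11 genes rose with R157K, and NDUFB5 and NDUFB6 were not called. NDUFB7, which faces the intermembrane space, stood at 41.9, 24.2 and 50.3 TPM with WT, 72.5, 73.0 and 58.3 with R157S, 184, 178 and 159 with R157K and 101, 107 and 107 with R157F. The groups followed the same order as for NDUFA13 without overlap, and NDUFB7 rose by 2.19 ± 0.20 (adjusted p = 3.16e-06). NDUFB1 was at 196, 182 and 188 TPM with WT, 207, 198 and 226 with R157S, 612, 699 and 748 with R157K and 282, 294 and 484 with R157F. R157K was highest, 1 of the 3 R157F libraries lay well above the others of its group, and NDUFB1 rose by 1.86 ± 0.17 with R157K (adjusted p = 2.83e-06). NDUFB10 stood at 68.8, 61.5 and 78.2 TPM with WT, 78.6, 91.6 and 74.7 with R157S, 202, 186 and 185 with R157K and 122, 118 and 131 with R157F. WT and R157S overlapped, and NDUFB10 rose by 1.45 ± 0.11 with R157K (adjusted p = 1.13e-06). NDUFB5 was not called (log2 change -0.32, adjusted p = 0.0522), but was called lower with the replicate number as a block (adjusted p = 0.0295).

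NDUFAB1, the mitochondrial acyl carrier protein that sits in both arms, was at 79.3, 76.2 and 73.1 TPM with WT, 84.7, 74.3 and 83.0 with R157S, 153, 176 and 158 with R157K and 98.3, 102 and 108 with R157F. R157K and R157F lay above WT while R157S overlapped it, and the change with R157K was 1.08 ± 0.09 (adjusted p = 1.83e-06). NDUFA4, the subunit of complex IV, rose by 0.56 with R157K (adjusted p = 0.00755).

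The 8 assembly factors were split, with 3 higher and 4 lower with R157K. NDUFAF4, which acts on the Q module, stood at 13.2, 21.1 and 18.2 TPM with WT, 12.1, 10.2 and 12.5 with R157S, 5.96, 10.4 and 6.79 with R157K and 12.4, 6.69 and 7.11 with R157F. All variant libraries lay below WT, and NDUFAF4 fell by 1.10 with R157K (SE 0.24, adjusted p = 0.00161). NDUFAF5, which hydroxylates an arginine of NDUFS7, was at 24.3, 25.2 and 22.7 TPM with WT, 16.0, 23.0 and 22.5 with R157S, 11.6, 16.1 and 11.3 with R157K and 12.7, 12.4 and 12.6 with R157F. NDUFAF5 fell by 0.86 with R157K (SE 0.15, adjusted p = 0.000366), and R157S overlapped WT. NDUFAF7, an arginine methyltransferase, was at 13.04, 15.7 and 13.5 TPM with WT, 10.1, 9.88 and 10.1 with R157S, 7.23, 7.28 and 6.90 with R157K and 9.75, 7.40 and 8.53 with R157F. Its groups did not overlap WT, and it fell by 0.89 (SE 0.12, adjusted p = 3.83e-05).

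Relative to the median of all genes, the changes of NDUFAF4, NDUFAF5 and NDUFAF7 were -0.76, -0.52 and -0.55. With the GC and length trends removed none of these 3 was called, at 0.00, 0.22 and -0.12. NDUFAF8, the partner of NDUFAF5, rose by 1.62 and still rose after that removal (0.69, adjusted p = 0.000792). NDUFAF3 and NDUFAF2 rose by 0.63 and 0.51. NDUFAF6 fell by 0.51 with R157K, or by 0.17 relative to all genes, and by 0.43 with R157F, and both calls were lost under median-ratio scaling (adjusted p = 0.495 and 0.0941). With R157K, NDUFAF5 fell where its target NDUFS7 rose. With the GC and length trends removed both changes were positive and neither was called.

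**Figure D2:**
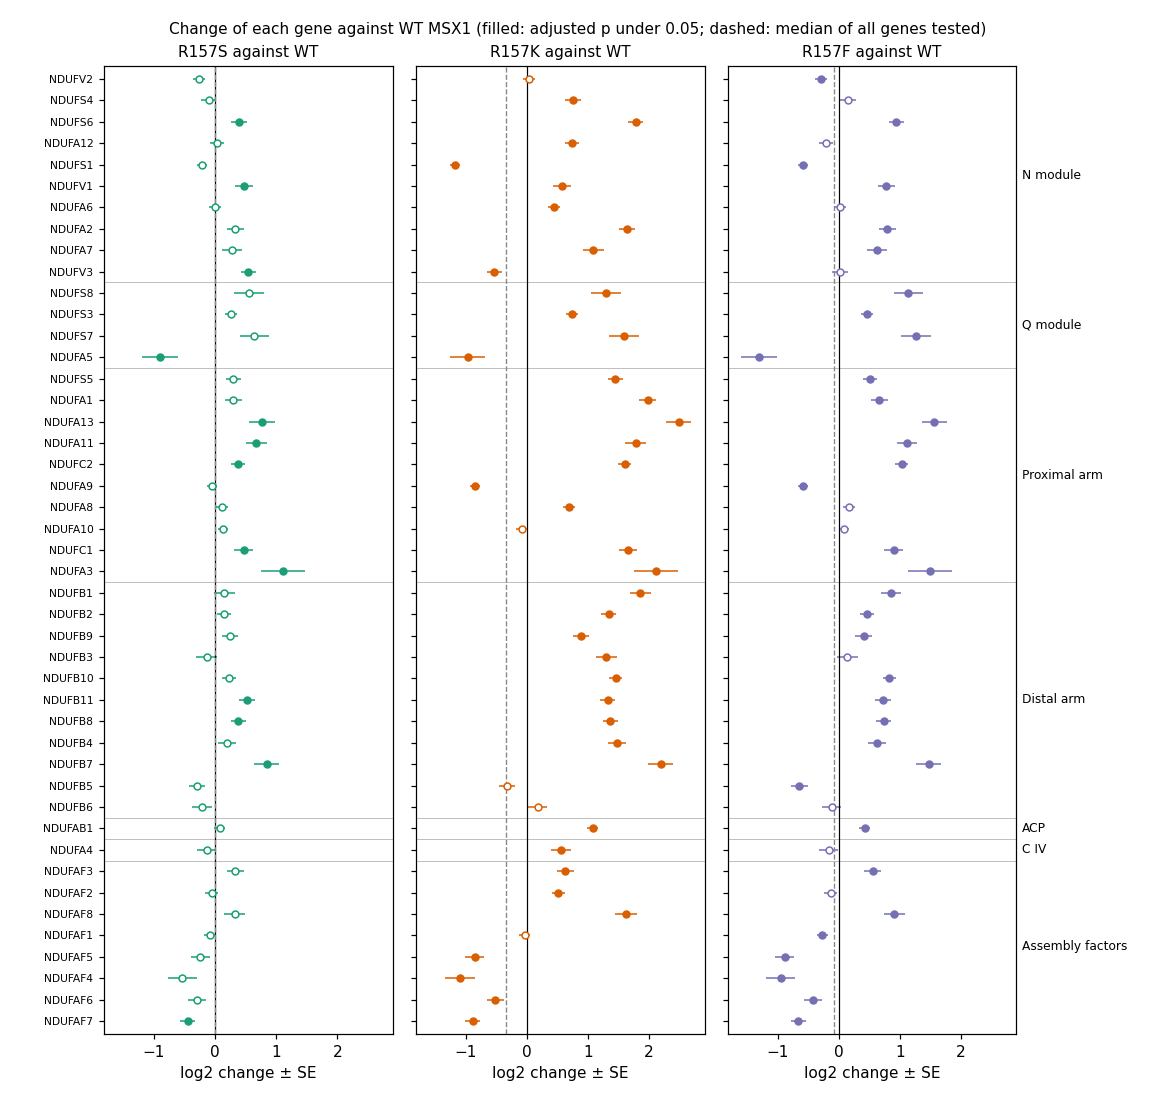
Log2 change of 45 of the 46 genes against WT, with its standard error, for each variant, in the same order as the plot of levels. Filled points have an adjusted p under 0.05 and the dashed line is the median of all genes tested. The R157K panel shows the widest range, from -1.17 for NDUFS1 to 2.48 for NDUFA13.

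With phenylalanine, genes of both membrane arm parts were again mostly higher. R157F against WT called 25 members higher and 10 lower, where 24.4% of all genes were higher and 33.8% lower (58.2% in either direction), so the share of members that were lower was below the share of all genes and the share that were higher above it. The median change was 0.44 for the members and -0.08 for all genes. The R157F libraries lay wholly above WT in 27 members and wholly below in 11, as in 28.6% and 37.7% of all genes. Higher genes made up 8 of 11 in the distal arm, 7 of 10 in the proximal arm, 4 of 10 in the N module and 3 of 5 in the Q module. Of the 8 assembly factors, 2 were higher and 5 lower, against 2 and 3 under median-ratio scaling, and by limma 0 were called with the GC and length trends removed.

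NDUFA13 rose by 1.56 ± 0.21 with R157F (adjusted p = 0.000234), NDUFA3 by 1.499 ± 0.36 (adjusted p = 0.00405) and NDUFB7 by 1.47 ± 0.20 (adjusted p = 0.000262), from the values given above. In each of them, all 3 R157F libraries lay above all 3 WT libraries. At the other end NDUFA5 fell by 1.31 (SE 0.29, adjusted p = 0.00268), NDUFAF4 by 0.95 (SE 0.24, adjusted p = 0.00551) and NDUFAF5 by 0.89 (SE 0.15, adjusted p = 0.000673). With R157F NDUFS1 fell by 0.58 and NDUFAF7 by 0.66, while NDUFC2 rose by 1.03, NDUFS7 by 1.27, NDUFB10 by 0.83 and NDUFS6 by 0.94. With the GC and length trends removed, 0 of the 7 core subunits were higher by limma and 1 was lower. The rise of NDUFS7 was then not called. NDUFB5, NDUFV2 and NDUFAF1 fell with R157F (by 0.64, 0.29 and 0.27). In the main model none of these 3 was called in the other 2 comparisons with WT, though NDUFB5 was with R157K under the replicate block. The calls of NDUFV2 and NDUFAF1 were lost under median-ratio scaling (adjusted p = 0.18 and 0.136). Under that scaling both were called higher with R157K by limma (by 0.45 and 0.36, adjusted p = 0.00422 and 0.00537).

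With serine, changes were small. R157S against WT called 11 members higher and 2 lower, where 7.6% of all genes were higher and 12.8% lower (20.4% in either direction), and the median change was 0.18 for members and -0.01 for all genes. In 17 members the R157S libraries lay wholly above WT and in 6 wholly below, as in 19.7% and 23.9% of all genes. NDUFA3 rose by 1.11 ± 0.36 (adjusted p = 0.0484), NDUFB7 by 0.85 ± 0.20 (adjusted p = 0.0224) and NDUFA13 by 0.77 ± 0.21 (adjusted p = 0.0296). NDUFA5 fell by 0.90 (SE 0.29, adjusted p = 0.0482) and NDUFAF7 by 0.45 (SE 0.12, adjusted p = 0.0288). NDUFV3 rose by 0.55 (adjusted p = 0.021), the reverse of its fall with R157K.

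The number of these calls changed when single libraries were left out. Without R157S replicate 2 or without R157S replicate 3, limma called 0 members, with 17 at an unadjusted p under 0.05 in each case. Without WT replicate 2 it called 5 and without WT replicate 3 it called 20. With the replicate number as a block, NDUFB8, NDUFC1 and NDUFS6 were no longer called (adjusted p = 0.0651, 0.0623 and 0.0638), and under median-ratio scaling NDUFA5 was not (adjusted p = 0.0603).

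Over the 3 comparisons with WT, which share the WT libraries, 10 members were called higher in all of them: NDUFA3, NDUFA11, NDUFA13, NDUFB7, NDUFB8, NDUFB11, NDUFC1, NDUFC2, NDUFS6 and NDUFV1. This pattern was found in 5.04% of all genes tested. A further 15 were called higher with R157K and R157F but not R157S, as were 9.63% of all genes. Those called lower in all 3 were NDUFA5 and NDUFAF7, and those called lower with R157K and R157F were NDUFA9, NDUFAF4, NDUFAF5, NDUFAF6 and NDUFS1, where 12.4% and 19.8% of all genes had these patterns. NDUFA10 and NDUFB6 were called in none. Under median-ratio scaling both were called higher with R157K by limma (by 0.33 and 0.58, adjusted p = 0.01 and 0.0131). In the F test over the 4 plasmids, 42 of 46 members passed, where 70.8% of all genes did.

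The variants were also compared with each other. Against R157K, R157S had 5 members higher and 31 lower, where 42.2% of all genes were higher and 7.9% lower (50.1% in either direction). The groups did not overlap in 7 members with R157S higher and 33 with R157S lower, as in 50.3% and 11% of all genes. The most negative changes were those of NDUFA13 (-1.71 ± 0.21, adjusted p = 5.58e-05) and NDUFB1 (-1.70 ± 0.17, adjusted p = 1.74e-05). NDUFV3 (1.08 ± 0.13, adjusted p = 4.45e-05) and NDUFS1 (0.95 ± 0.08, adjusted p = 8.96e-06) were the most positive. The median of all genes in this comparison was 0.33, and relative to it NDUFV3 and NDUFS1 were higher by 0.75 and 0.62. Under median-ratio scaling, 3 members were higher and 35 lower, with 15.3% and 17.5% of all genes.

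R157K exceeded R157F in 26 members and was below it in 3, where 3.3% of all genes were higher and 26.4% lower (29.7% in either direction). The groups did not overlap in 33 members with R157K higher and 6 with R157K lower, as in 6.52% and 46.3% of all genes. NDUFA1 (1.32 ± 0.14, adjusted p = 0.000218) and NDUFB3 (1.16 ± 0.17, adjusted p = 0.00105) had the largest positive differences. NDUFB3 of the distal arm was at 168, 279 and 196 TPM with R157K and 83.8, 85.7 and 113 with R157F, without overlap, and R157F overlapped WT. NDUFS1 (-0.59 ± 0.08, adjusted p = 0.000867) and NDUFV3 (-0.56 ± 0.13, adjusted p = 0.00747) were lower with R157K, but relative to the all-gene median of -0.27 these differences were -0.32 and -0.29. Under median-ratio scaling, 30 members were higher and 0 lower (limma, with 6.04% and 3.08% of all genes), and NDUFS1 and NDUFV3 were not called (adjusted p = 0.0719 and 0.244).

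R157S and R157F differed in 10 members, 4 higher and 6 lower with R157S, where 4.31% of all genes were higher and 1.11% lower (5.42% in either direction). The groups did not overlap in 8 members with R157S higher and 23 with R157S lower, as in 28.8% and 18.7% of all genes. NDUFA13 (-0.79 ± 0.21, adjusted p = 0.0474) and NDUFB1 (-0.70 ± 0.17, adjusted p = 0.0355) were the most negative. NDUFAF5 (0.65 ± 0.15, adjusted p = 0.0344) and NDUFA9 (0.54 ± 0.08, adjusted p = 0.00826) were the most positive. With the replicate block 6 members were called, and NDUFA13, NDUFAB1, NDUFS6 and NDUFV3 were not (adjusted p = 0.0562, 0.0697, 0.0503 and 0.0513). Under median-ratio scaling 1 was higher and 4 lower, with 1.22% and 1.08% of all genes. Without R157S replicate 3 or without R157F replicate 3, limma called 0 members, with 16 and 18 at an unadjusted p under 0.05, while 24 were called without WT replicate 2.

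The members share features that the naming rule did not use. Features were taken from 1 GENCODE 29 transcript per gene, the longest of those with the best rank as principal isoform. Whether it is the isoform expressed here was not tested. Those of the members are short, with a median of 1015 bases against 2889 for all genes tested that have one. Their median coding length was 463.5 against 1386 bases. Their median GC content was 47.9%, against 48.7%. Across the 46 members, the change with R157K was related to transcript length by a Spearman rho of -0.65 and to GC content by 0.63. The same values over 14220 genes were -0.41 and 0.72, so length and GC content moved with the change in the rest of the transcriptome too. The relation to GC content was not limited to R157K. Its rho was 0.85 across members with R157S and 0.8 with R157F, and 0.76 and 0.81 over all genes. These coefficients are descriptions across genes that share libraries.

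Split by length, all 16 members in the shortest group (528 to 791 bases) were higher with R157K, where 36.4% of the 615 genes in that length range were. Their median change was 1.40, against 0.20 for those 615 genes. In the middle group (804 to 1461 bases) 11 of 15 were higher and 0 lower by limma, where 42.4% of all genes of that length were higher and 17.9% lower. In the longest group (1666 to 11819 bases) 5 of 15 were higher and 8 lower, where 13.1% of all genes of that length were higher and 53.3% lower, so the share of long members that were lower was close to that background. The medians of the members were 1.08 and -0.51, against 0.25 and -0.44 for those genes. NDUFC2, with 2518 bases, and NDUFB2, with 1666, were among the longer genes that rose.

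**Figure D3:**
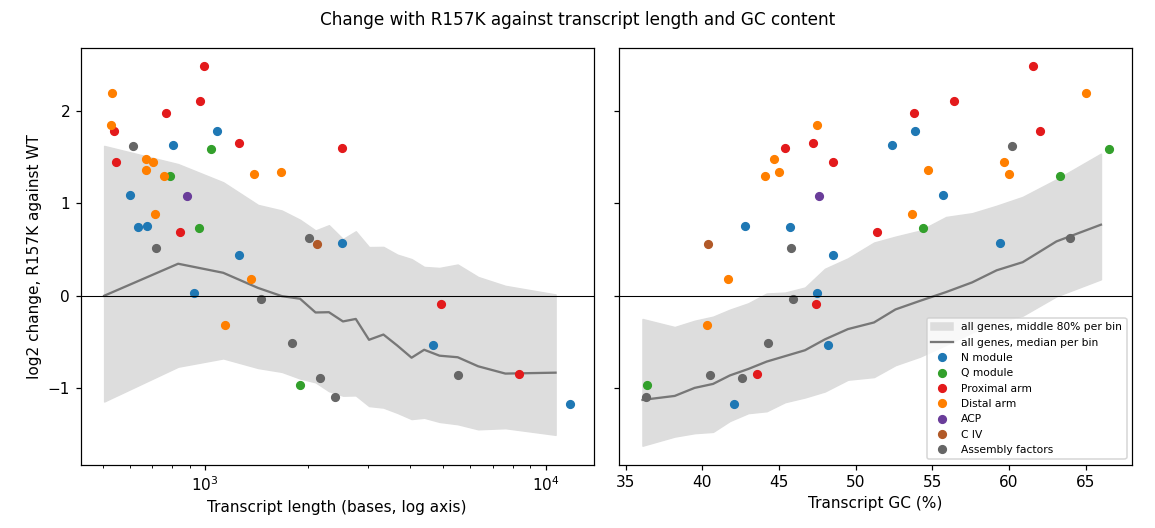
Log2 change with R157K against WT, plotted against transcript length in bases on a log axis and against transcript GC content in percent. Points are 45 of the 46 genes, coloured by the part of complex I, and the line and band give the median and the middle 80% of all genes tested in bins. Most membrane arm genes lie above the line, while NDUFS1, with the longest transcript, lies below 0 at -1.17.

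Because of that relation, the changes were recomputed after a smooth trend on GC content and one on length had been removed from each library. With R157K, 32 members were then higher and 0 lower by limma, where 20.7% of all genes were higher and 21.8% lower (42.5% in either direction), and the median change was 0.58 for members and 0.00 for all genes. The 32 comprised 9 of 10 proximal arm genes, 10 of 11 distal arm genes, 7 of 10 N module genes, 1 of 5 Q module genes, NDUFAB1, NDUFA4 and 3 assembly factors. NDUFC2 had the largest change after removal (2.26 ± 0.11, adjusted p = 2.48e-07), and NDUFA13 and NDUFB7 kept 1.56 and 0.89. Core subunits were called in 2 of 7 cases, NDUFS3 and NDUFV1, and accessory subunits in 26 of 30. Across the 46 members, the R157K change after the removal was still related to transcript length by a Spearman rho of -0.46. The rho with coding length was -0.72, and -0.6 before the removal. Over 14220 genes the rho with transcript length was 0.02 after it. Coding length ran from 630 to 2181 bases in the core subunits and from 210 to 1131 in the accessory ones. What part length had in their difference was not tested.

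With R157F, 17 members were higher and 1 lower (NDUFV2) after the removal, where 13.2% and 14.2% of all genes were (27.4% in either direction), with a median of 0.21. With R157S, 3 were higher (NDUFC1, NDUFC2 and NDUFV3) and 0 lower, where 3.19% and 2.5% of all genes were (5.7% in either direction). Between variants, R157S against R157K had 2 members higher and 31 lower, where 14.7% and 13.6% of all genes were (28.3% in either direction). R157K against R157F had 27 members higher and 0 lower by limma, where 6.32% and 5.6% of all genes were (11.9% in either direction). R157S against R157F had 0 higher by limma and 5 lower, where 1.92% and 1.01% of all genes were (2.93% in either direction). Of the 40 members called with R157K before the removal, 29 kept the call and 11 lost it, among them all 8 that were lower. A further 3 were newly called. Of the 35 called with R157F, 13 kept the call and 22 lost it, and 5 were new. Which part of these changes belongs to transcript length or GC content was not tested. These trends differ between the plasmid groups, so trend and plasmid cannot be told apart here.

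**Figure D4:**
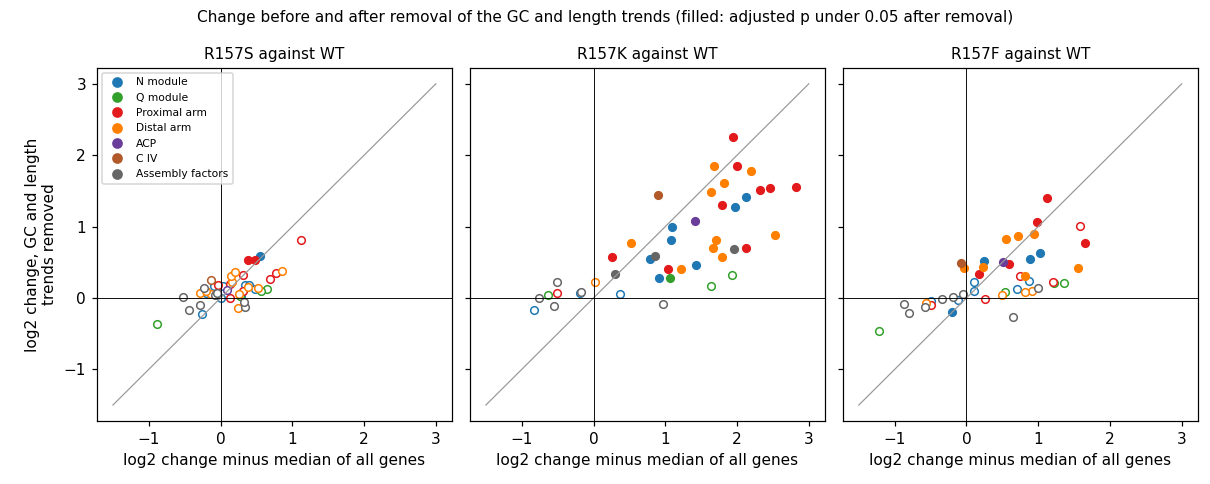
Log2 change of 45 of the 46 genes against WT once the trends on GC content and length were taken out, against the change minus the median of all genes before it, for each variant. Filled points have an adjusted p under 0.05 after the removal and the grey line marks equal values. With R157K the filled points all lie above 0, with NDUFC2 highest at 2.26, and the points on the left of the panel move up to near 0.

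In sum over the 46 genes, the members took 0.316%, 0.288% and 0.333% of the library total with WT, 0.347%, 0.35% and 0.347% with R157S, 0.626%, 0.724% and 0.636% with R157K and 0.407%, 0.413% and 0.438% with R157F. The groups did not overlap. The distal arm genes took 0.0911% with WT and 0.238% with R157K on average, and the proximal arm genes 0.0851% and 0.23%. The 8 assembly factors took 0.0161% and 0.0185%. Cytosolic ribosomal protein genes, 86 by symbol, moved in the same order, with 4.62% to 6.31% of the total with WT, 6.45% to 6.73% with R157S, 11.7% to 14% with R157K and 7.58% to 7.96% with R157F. How far the sum of this abundant class bears on the members, in a unit that shares out a fixed total, was not tested.

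Of the 7 complex I subunits encoded in mitochondrial DNA, 1 was higher and 5 were lower with R157K (1 and 3 under median-ratio scaling). MT-ND3 rose by 1.81 (adjusted p = 5.36e-07), from 2190 ± 168 to 7710 ± 958 TPM, and MT-ND4 fell by 1.25 (adjusted p = 1.57e-06), from 6580 ± 832 to 2760 ± 206 TPM (SD, n = 3). Their sum was 2.11% to 3.89% of the total with WT and 2.49% to 3.01% with R157K, which overlap. With R157S the sum was 1.94% to 2% and with R157F 1.73% to 1.83%, both below every WT library, while the sum of the nuclear genes was above WT in both.

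**Figure D5:**
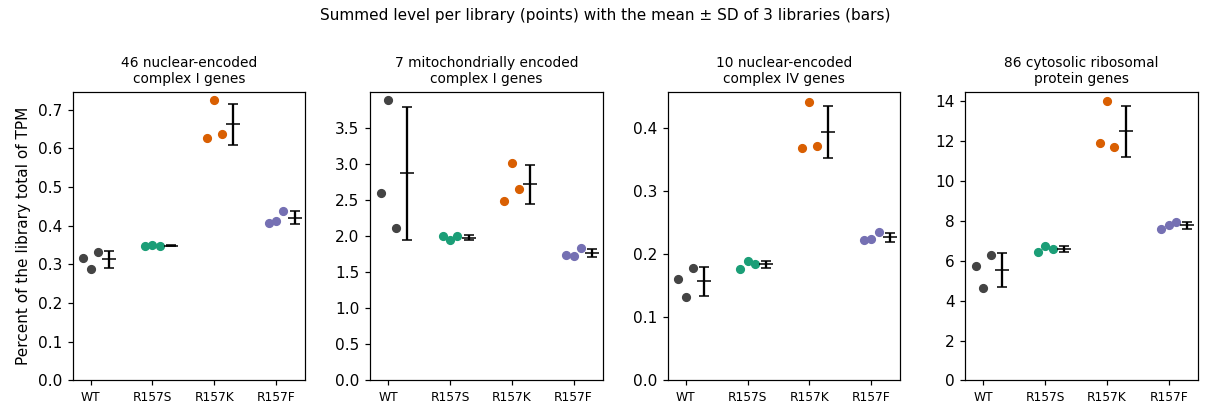
Percent of the library total of TPM taken by 4 sets of genes in each library (points), with the mean and SD of 3 libraries (bars), on axes that start at 0. The nuclear complex I genes, the nuclear complex IV genes and the ribosomal protein genes were highest with R157K, at 0.626% to 0.724% for complex I, whereas the mitochondrially encoded complex I genes overlapped between WT and R157K.

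Other genes of the respiratory chain were read from lists. Of 12 further complex I assembly factors outside the NDUF names, 1 was higher (TMEM186, by 0.74) and 2 lower with R157K, among them NUBPL, which delivers iron-sulfur clusters to complex I (by -0.84, adjusted p = 0.00369). Under median-ratio scaling 7 of the 12 were higher and with the GC and length trends removed 6 were, with 0 lower by limma in both, so the fall of NUBPL was called in neither. Nuclear complex IV genes were higher in 8 of 10 and lower in 0 with R157K by limma, with a median change of 1.46, and COX7A2 rose by 1.48 (adjusted p = 9.91e-07). Complex III had 6 of 9 higher and 2 lower, and UQCR10 rose by 1.43. ATP synthase had 10 of 16 higher and 3 lower, and ATP5PB of its peripheral stalk fell by 1.95 (adjusted p = 9.2e-07). Complex II had 2 of 8 higher and 2 lower, against 4 and 0 under median-ratio scaling by limma.

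Of 8 tested regulators of respiratory genes, 7 were lower and 1, ESRRA, was higher with R157K. YY1 fell by 1.28 (adjusted p = 1.32e-05), from 74.6 ± 19.2 to 29.5 ± 1.77 TPM (SD, n = 3), and GABPB1, part of an ETS-family factor, by 1.10 (adjusted p = 1.49e-05). With the GC and length trends removed, 2 of the 8 were higher and 2 lower, and under median-ratio scaling 1 was higher and 4 were lower. Enzymes that feed or make ubiquinone had 1 of 13 higher and 7 lower with R157K, where ETFB rose by 1.64 and COQ2 fell by 0.86. Under median-ratio scaling 3 were higher and 4 lower, and with the trends removed 5 and 2.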

How the data were processed

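RNA of the 12 libraries was extracted with TRIzol and sequenced from poly(A)-selected stranded libraries, per the labels' protocols. The authors deposited 1 table of TPM per gene, made with RSEM per the submitters' processing notes, which name no version. Not given in the sources used here are the aligner, genome build, annotation and strand setting. TPM keep no sequencing depth, so depth is unknown and no counting interval is given. All 12 value columns were mapped to samples by name, and 0 columns were without a sample.

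Values were analysed as log2(TPM + 1) for the 14718 genes that reached 1 TPM in 3 or more libraries. One limma-trend model over the 4 groups (limma 3.58.1, R 4.3.3, 8 residual degrees of freedom) gave 6 comparisons and an F test, with Benjamini-Hochberg adjustment over all genes tested and a threshold of 0.05. The pipeline was tested on simulated data. An exact permutation test of 3 against 3 libraries cannot go below 0.1 and was not used. Tables and figures were made with Python 3.11.15, pandas 2.3.3 and matplotlib 3.10.9.

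Members and lists were chosen with earlier results of these data known. Named in full were, in each comparison with WT, the 3 called members with the most positive and the 3 with the most negative change, the 6 members with the lowest F test p, the 3 with the highest mean TPM and the enzymes NDUFAF7 and NDUFAF5 with NDUFS7, the target of NDUFAF5. One member enters the counts, medians and sums but is not reported here by itself. Between variants the 2 most positive and the 2 most negative called members were named, and of other lists up to 2 called genes. Other members are named beside them, chosen after their values were seen.

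Alternatives were a pseudocount of 0.1, no filter, median-ratio scaling, a model of only the 2 groups, the replicate number as a block, a required log2 change of 1, each library left out, and lowess trends (span 0.3) on transcript GC content and length removed per library for 14220 genes with features in GENCODE 29. That annotation and RefSeq GRCh38.p14 may not be the authors' build. The labels carry the replicate number under a tag for batch in every group, which was read as pairing. Deviations from the group means correlated at -0.13 to 0.39 (median -0.03) in the 18 pairs of libraries with the same number and at -0.35 to 0.32 (median 0.01) in the 36 pairs with other numbers.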

Additional observations from a re-analysis of the deposited data

How the results depend on the processing

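The counts of members called for R157K against WT (40), R157F against WT (35) and R157S against R157K (36) stayed within 1.5 times under the other pseudocount, no filter, median-ratio scaling, a model of only the 2 groups and the replicate block. The count for R157S against WT (13) fell to 1 without a filter and to 0 with only the 2 groups in the limma model, where 17 members had an unadjusted p under 0.05. For R157S against R157F (10), the counts were 4 without a filter, 5 under median-ratio scaling and 26 with only the 2 groups. With the replicate block it was 6, and apart from the calls named in the report the block changed no other member call in the 6 comparisons. When a log2 change of at least 1 was also required, WT comparisons called 1 member (R157S), 24 (R157K) and 8 (R157F). Between variants, 17 passed in R157S against R157K, 2 in R157K against R157F and 0 (limma) in R157S against R157F. The counts in this section, and those above for left-out libraries and the replicate block, stand without the share of all genes. They describe how the member calls depend on the setting and do not set the members against other genes.

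With the GC and length trends removed, 3 members were called for R157S against WT, 18 for R157F against WT and 5 for R157S against R157F. With the replicate block as well, the counts were 2, 18 and 3. With the trends removed and WT replicate 2 left out, an alternative chosen after seeing the data, 1 was called for R157S, 14 for R157F and 32 for R157K, of which 31 were higher and 1 lower. Removing the trends, with or without the block, turned the sign of NDUFAF4 (0.00), NDUFA5 (0.042) and NDUFAF5 (0.22) for R157K against WT. For R157S against WT it turned that of NDUFS1 (0.064), NDUFB10 (-0.14) and NDUFAF5 (0.14). Without WT replicate 2 as well, the reversed values were NDUFA5 0.30 and NDUFAF5 0.13 for R157K, and NDUFS1 0.016, NDUFB10 -0.056, NDUFS7 -0.017 and NDUFAF5 0.05 for R157S. The cause of these changes was not tested.

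With 1 library left out in turn, the comparisons with WT called 0 to 20 members (R157S), 40 to 41 (R157K) and 32 to 35 (R157F). R157S called 34 to 40 against R157K and 0 to 24 against R157F, R157K against R157F called 25 to 34, and the F test called 41 to 42. Depth is not known from TPM, and 3 libraries per plasmid limit the precision of each change.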
